A study of Mus musculus with 4 samples.

Results

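Among the tibial cartilage cells rich in Ucma, 210 expressed F3, the gene of tissue factor. They were chosen from 14181 barcodes, of which 8256 had at least 1600 genes detected and at most 10% of their unique molecular identifiers (UMIs, counted transcripts) from mitochondrial genes. A cell entered the Ucma-rich gate when, per 10000 of its UMIs, it had at least 100 of Col2a1, at least 10 of Ucma, fewer than 5 of Pth1r and fewer than 20 of Col10a1. It also had at most 2 UMIs of Ptprc and fewer than 5 of Top2a and Mki67 together. The gate held 880 cells. The 210 cells with at least 2 F3 UMIs are called F3+ here, and the 670 with fewer are called F3-low. The F3+ cells were 23.9% of the gate (exact Clopper-Pearson 95% interval 21.1 to 26.8%) and 2.54% of the cells kept. Since F3 and the other gate genes chose the cells, all differences between F3+ and F3-low cells are given as descriptions, with no test.

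All cells came from 1 droplet library, deposited as 4 sequencing entries whose reads were counted together, from a pool of 2 tibiae of 1 male mouse at postnatal day 6. Its genotype was Col10a1Cre;Rosa26-Tdtomato;Irx3 +/Δ;Irx5 +/-, the heterozygous control for Irx3 and Irx5, and every cell group described here shares it. Cre under the control of Col10a1 is active in hypertrophic chondrocytes, so that the red reporter marks these and their descendants and the Δ allele of Irx3 arises in them. The tissue included the growth plates but not the secondary ossification centres, and was digested with dispase and collagenase. With 1 mouse there were no replicates, and cells of 1 library do not replace them. Each interval covers counting error only and not the spread between animals.

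Tissue factor is the cell surface receptor for clotting factor VII, and their complex starts the extrinsic coagulation pathway. In many cell types outside the blood the gene is switched on by growth factors and cytokines. Ucma encodes a small secreted protein, rich in gamma-carboxyglutamate, of the upper growth plate cartilage. Chondrocytes there lie in a matrix of type II collagen and aggrecan, without vessels and at low oxygen. The other genes proposed as markers of the F3+ cells are Plet1, a surface protein known from placenta and epithelial progenitors, Il11, a cytokine of the IL-6 family, and Krt16, a keratin of stressed epidermis.

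The cells were chondrocytes by markers that the gate did not use. Acan, the gene of aggrecan, was found in 210 of 210 F3+ cells and had 5662 CPM (5586 to 5739) in F3+ and 6558 CPM (6512 to 6604) in F3-low cells, in CPM, the UMIs of a gene summed over a group and scaled to the group's total, with 95% Poisson intervals. Sox9, the master regulator of chondrocytes, had 1231 CPM (1196 to 1267) in F3+ and 1246 CPM (1226 to 1266) in F3-low cells, so the intervals overlapped. The 7 cartilage collagen genes measured beside Col2a1 differed by a median of 0.02 on the log2 scale. The groups were also close in depth, with a median of 16848 UMIs per F3+ cell (lowest 4584, highest 47949) and 17280.5 per F3-low cell (3698 to 59551). They held 3732726 and 11991751 UMIs in all.

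The RNA composition of the groups was not the same. The median share of mitochondrial UMIs was 4.87% in F3+ and 3.99% in F3-low cells, and that of ribosomal protein UMIs 24.0% and 27.3%. The part of these shares in the differences that follow was not tested.

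F3 itself was unevenly spread. Of the 880 gated cells, 515 had no F3 UMI, 155 had 1, 61 had 2 and 34 had 3. Among F3+ cells the lowest count was 2, the median 4 and the highest 65. The 45 cells with 10 or more F3 UMIs held 58.8% of the 1525 F3 UMIs of the F3+ group. The median cell thus lay close to the threshold and a small number of cells carried most of the transcript. In summed UMIs, F3 had 409 CPM (388 to 429.6) in F3+ and 12.9 CPM (11.0 to 15.1) in F3-low cells, a difference that the rule itself made.

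Free RNA in the droplets was gauged in 1251 leukocytes, although monocytes are known to be able to express F3. After every cell was thinned to 5000 UMIs, 1.34% of leukocytes had an F3 UMI, against 74.2% of F3+ and 7.35% of F3-low cells. Before thinning the shares were 3.12%, 100% by the rule, and 23.1%. Thinning left out 60 leukocytes, 1 F3+ cell and 3 F3-low cells. F3-low cells were therefore above the leukocyte level and are not a group without F3.

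Cells with at least 2 F3 UMIs were also found elsewhere in the cartilage. They made up 12.4% of 428 columnar cells poor in Ucma, 11.6% of 396 cells of the Pth1r gate, 9.30% of 129 cells of the Col10a1 gate and 15.5% of 283 cycling chondrocytes. The median depth of these gates was 22895, 30191, 33978 and 31046 UMIs, above that of the Ucma-rich gate, which makes a threshold in UMIs easier to reach. Outside cartilage the shares were 1.77% in 1071 osteoblast lineage cells, 1.87% in 857 endothelial cells and 0.160% in leukocytes, at median depths of 13115, 9331 and 12471 UMIs.

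Over all cells of a gate, whatever their F3 count, F3 had 30.3 CPM (27.0 to 33.9) in the Ucma-poor gate, 24.98 CPM (21.8 to 28.5) in cycling chondrocytes, 24.6 CPM (21.9 to 27.6) in the Pth1r gate and 24.2 CPM (19.8 to 29.2) in the Col10a1 gate, and the intervals of these neighbours overlapped. Endothelial cells had 9.42 CPM (7.66 to 11.5) and osteoblast lineage cells 8.33 CPM (6.97 to 9.87), which overlapped, and leukocytes were the lowest of these 7 gates with 2.204 CPM (1.58 to 2.99). The F3+ and F3-low groups are not placed in this order, since the rule fixed their F3 counts.

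The promoters of F3 and of 3 genes high in the same cells are shown because their windows hold the same known binding letters. The windows are from RefSeq on GRCm38.p6 and run from 250 bases before to 50 bases after an annotated start. They are F3 (chr3:121723287-121723586, plus strand), Plet1 (chr9:50494275-50494574, plus strand), the second of 2 windows of Il11 (chr7:4778092-4778391, minus strand) and Plaur (chr7:24462233-24462532, plus strand), the urokinase receptor. Capitals mark TGANTCA, the letters known to be bound by AP-1, the Fos and Jun proteins, which read the same on both strands.
F3: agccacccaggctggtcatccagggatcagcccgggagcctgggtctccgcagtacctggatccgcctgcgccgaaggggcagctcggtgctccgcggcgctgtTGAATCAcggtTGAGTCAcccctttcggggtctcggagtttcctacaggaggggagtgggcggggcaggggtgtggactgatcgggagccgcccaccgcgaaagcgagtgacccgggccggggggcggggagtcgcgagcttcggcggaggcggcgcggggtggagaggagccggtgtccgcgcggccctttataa
Plet1: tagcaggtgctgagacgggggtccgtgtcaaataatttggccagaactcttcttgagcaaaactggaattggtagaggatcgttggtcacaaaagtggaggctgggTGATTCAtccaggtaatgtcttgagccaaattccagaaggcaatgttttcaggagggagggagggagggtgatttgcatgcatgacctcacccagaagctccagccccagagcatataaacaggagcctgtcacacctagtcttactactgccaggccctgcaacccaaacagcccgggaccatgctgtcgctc
Il11: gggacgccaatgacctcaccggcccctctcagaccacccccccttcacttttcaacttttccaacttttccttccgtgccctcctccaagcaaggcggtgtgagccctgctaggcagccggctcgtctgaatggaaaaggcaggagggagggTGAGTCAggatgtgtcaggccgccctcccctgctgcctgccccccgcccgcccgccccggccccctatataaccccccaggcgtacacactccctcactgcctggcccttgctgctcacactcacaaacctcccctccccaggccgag
Plaur: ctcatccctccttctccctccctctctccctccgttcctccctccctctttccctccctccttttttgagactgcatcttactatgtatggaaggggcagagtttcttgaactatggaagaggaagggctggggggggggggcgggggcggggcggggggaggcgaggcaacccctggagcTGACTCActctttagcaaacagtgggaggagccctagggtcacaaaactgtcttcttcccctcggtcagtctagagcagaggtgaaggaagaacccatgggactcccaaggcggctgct

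The F3 window holds the letters 2 times, beginning 146 and 135 bases before the start. The Plet1 window holds them 144, the printed Il11 window 98 and the Plaur window 69 bases before the start, and the first Il11 window does not hold them. Of the 4 markers Krt16 had no window in the table. Of all 27025 genes, 8.97% have a window with TGANTCA, and 7.81% of the 32851 windows hold it. Of the 15 genes with the highest ratios described further on, 9 were matched and 2 held it, Plaur and Plet1. The windows of Errfi1 and Timp1, also high in F3+ cells, do not hold the letters, nor does that of any of the 11 matched genes of the ERK feedback list described further on. Of 21 matched immediate early and AP-1 genes 1 holds them. A match describes letters and is not a shown site.

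Plet1 lies at chr9:50494525-50505482 on mm10 in the GENCODE annotation. Over all cells, at the F3 minimum of 2 UMIs, it had the largest difference of the 3 other markers, though not with every choice of cells. It had 126 CPM in F3+ and 47.1 CPM in F3-low cells, 2.67-fold higher, and a log2 ratio of 1.40 (1.22 to 1.57), where the log2 ratios here and in the rest of the text have 1 CPM added to each level and a 95% counting interval. When cells were split into 3 strata of depth with near equal numbers of F3+ cells, the ratio was 1.48 in the shallow, 0.91 in the middle and 1.91 in the deep stratum. Plet1 was found in 68 of 210 and 109 of 670 cells, and the highest single cell had 31 UMIs in the F3+ and 43 in the F3-low group, so the ranges overlapped.

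Il11, at chr7:4772373-4782859, had 159 CPM in F3+ and 82.5 CPM in F3-low cells, with a log2 ratio of 0.94 (0.79 to 1.09), and was found in 72 of 210 and 143 of 670 cells. Krt16, at chr11:100246091-100248902, had 288 CPM in F3+ and 149 CPM in F3-low cells, with a log2 ratio of 0.95 (0.84 to 1.06), and was found in 63 of 210 and 134 of 670 cells. The Krt16 difference varied with the choice of cells. It was 0.22 in the shallow, 1.03 in the middle and 1.34 in the deep stratum. With the Ucma minimum raised to 20 per 10000 UMIs it was 0.24 and no longer past 1.5-fold, while Plet1 had 1.21 and Il11 0.68.

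All 3 markers were seldom counted in the same cell, where a gene with no UMI is one not detected at this depth. At least 2 UMIs of Plet1 were counted in 24.8% of F3+ and 11.5% of F3-low cells, of Il11 in 25.2% and 13.3%, and of Krt16 in 25.7% and 15.7%. Of the F3+ cells, 7 had at least 2 UMIs of all 3 genes, 37 of 2 genes, 64 of 1 gene and 102 of none. Among F3-low cells these numbers were 10, 56, 129 and 475. At least 1 of the 3 was reached in 51.4% (44.5 to 58.4%) of F3+ and 29.1% (25.7 to 32.7%) of F3-low cells. The 195 F3-low cells in the latter share outnumber the 108 F3+ cells in the former.

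Across the library each marker was higher in cartilage gates than outside them. Plet1 lay between 9.27 and 50.2 CPM in the Ucma-poor, Pth1r, Col10a1 and cycling gates and between 0.856 and 3.12 CPM in the osteoblast lineage, endothelial and leukocyte gates. Il11 lay between 37.6 and 59.4 CPM in the same cartilage gates and between 2.10 and 12.05 CPM outside. Krt16 lay between 88.8 and 129 CPM and between 1.71 and 3.41 CPM. Each of the 3 was highest in the F3+ cells when the other gates were taken whole, whatever their F3 count. In cells with at least 2 F3 UMIs, Il11 had 189 CPM in the Ucma-poor gate, above the 159 CPM of the F3+ cells. Krt16 had 331 CPM in such cells of the Pth1r gate, above 288 CPM. The other levels of the 3 genes in such cells of the Ucma-poor, Pth1r and cycling gates were below those of the F3+ cells.

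**Figure D1:**
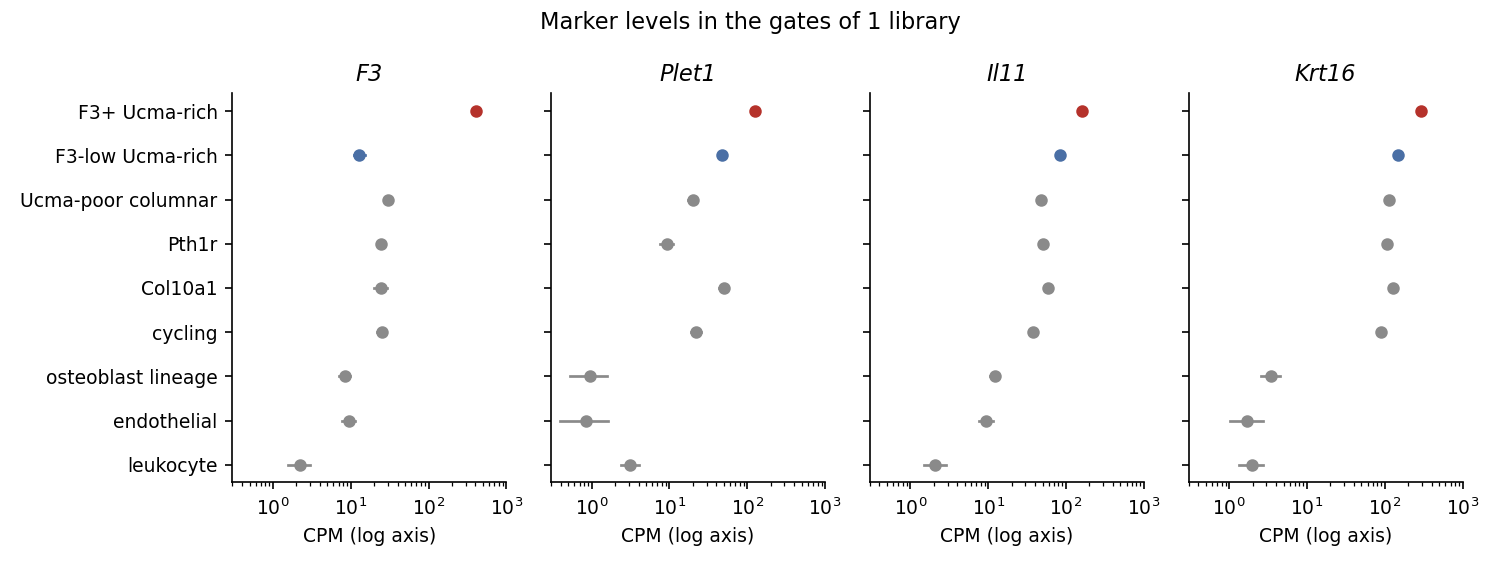
Levels of F3, Plet1, Il11 and Krt16 in 9 gates of the library, in CPM of summed UMIs on a log axis, with points at the level and bars for the 95% Poisson interval. F3 is 409 CPM in F3+ cells by construction. Among the 9 gates as drawn, with the neighbours not split by F3, the other 3 genes are also at their highest there.

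Over the transcriptome, 7172 genes reached 10 CPM in either group, not counting the 8 genes of the gate, and their median log2 ratio was -0.02. Of these, 504 (7.03%) were more than 1.5-fold higher in F3+ cells and 202 (2.82%) more than 1.5-fold lower. With ribosomal protein, mitochondrial and Col2a1 UMIs left out of the totals, 8398 genes reached the minimum, with 563 higher and 403 lower. Of the higher genes 393, and of the lower 179, had the same direction in all 3 depth strata. A gene that reached 10 CPM in 1 group only had to be higher there, which held for 369 genes of the F3+ and 359 of the F3-low group. Of the 6444 genes at 10 CPM or more in both groups, 5.28% were past 1.5-fold higher and 1.71% lower, with a median of -0.02. Where a list had genes that reached the minimum in 1 group only, they are named or its counts are given for genes at 10 CPM or more in both. The counts of each gene list are set beside these percentages and the median of all genes, with no test. The genes named are the 15 highest and 15 lowest with at least 50 CPM and the same direction in all strata, and the 2 most abundant, the highest and the lowest of each list.

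**Figure D2:**
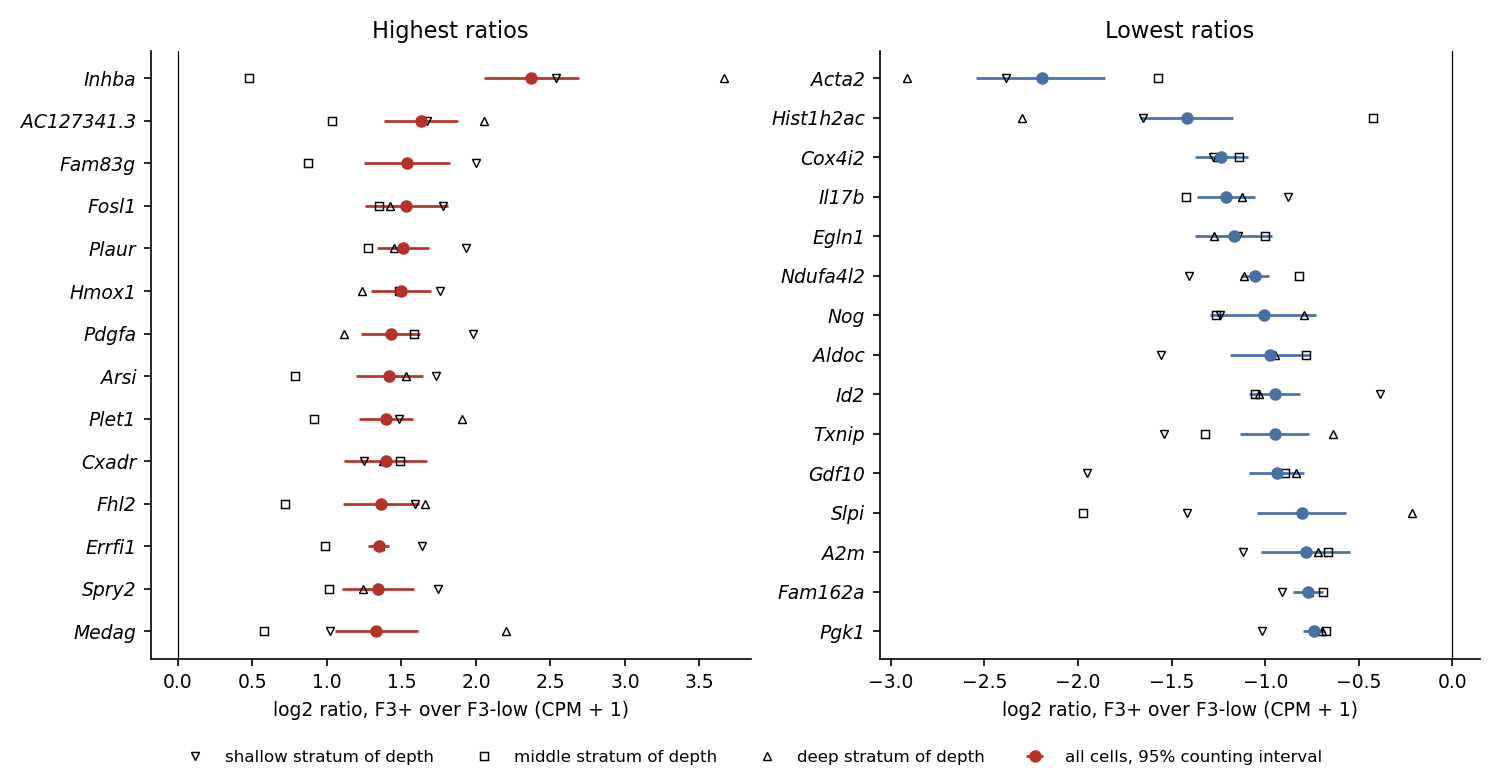
Log2 ratio of F3+ over F3-low cells (1 CPM added) for the highest and lowest genes named here, with bars for the 95% counting interval over all cells and separate symbols for the 3 strata of depth. Inhba ranges from 0.48 to 3.66 between strata, while Errfi1 stays between 0.98 and 1.64.

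Pdgfa and Inhba were among the 15 highest genes. Pdgfa, the A chain of platelet-derived growth factor, had 103 CPM in F3+ and 37.7 CPM in F3-low cells, a log2 ratio of 1.43 (1.23 to 1.63), and was found in 113 of 210 and 224 of 670 cells. Inhba, the activin A subunit, had the highest ratio of these 15, 2.37 (2.05 to 2.69), at 58.9 and 10.6 CPM, but it came from few cells. It was found in 38 of 210 and 50 of 670 cells, and 2 F3+ cells held 45% of its UMIs in that group. Without the 2 highest cells of each group the ratio was 2.37. In the middle stratum of depth it was 0.48, below 1.5-fold.

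Plaur, the receptor that holds urokinase at the cell surface, had 139 CPM in F3+ and 48.0 CPM in F3-low cells, with a log2 ratio of 1.51 (1.34 to 1.68), and was found in 60.5% of F3+ and 30.7% of F3-low cells. Of 6 measured genes of the plasminogen activation list, 3 were past 1.5-fold higher and none lower, with a median of 0.58. S100a10 and Anxa2, whose proteins form a plasminogen receptor, had ratios of 0.37 and -0.01. In the clotting list 3 genes were measured beside F3, of which Tfpi2 and Thbd reached 10 CPM in F3+ cells only, so no count is read from them. Tfpi2, a protease inhibitor related to the inhibitor of tissue factor, had 26.5 CPM in F3+ and 3.17 CPM in F3-low cells, and was found in 20 of 210 and 24 of 670 cells. Pros1, the anticoagulant protein S, had 30.8 and 22.3 CPM, within 1.5-fold.

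Red blood cell markers apart, the ERK feedback list had the largest share past 1.5-fold higher of lists with at least 5 measured genes. ERK is the kinase that carries signals from growth factor receptors, and it is known to switch on its own inhibitors. The list holds inhibitors of the pathway and other genes, Phlda1 and Epha2 among them. Of 9 measured genes of this list, 8 were past 1.5-fold higher and none lower, and the median log2 ratio was 0.98. Dusp6 and Spred2 reached 10 CPM in F3+ cells only, and of the 7 genes at that level in both groups 6 were past 1.5-fold higher, with a median of 1.17. Errfi1, an inhibitor of the EGF receptor, had 731 CPM (704 to 759) in F3+ and 287 CPM (277 to 297) in F3-low cells, a log2 ratio of 1.35 (1.27 to 1.42). Spry2, a Sprouty inhibitor of receptor signalling, had 67.8 and 26.1 CPM, and Phlda1, a gene switched on by growth factors, 638 and 400.1 CPM. Spred1, another inhibitor of the pathway, was within 1.5-fold at 87.3 and 67.0 CPM.

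The difference in the ERK list was spread over many cells. Summed over the list, the lowest F3+ cell had 1.73 UMIs per 10000, the median 16.9 and the highest 82.2, and the F3-low cells had 0, 7.27 and 74.7. Of F3+ cells, 83.3% were above the F3-low median, although the ranges overlapped. Errfi1 alone was found in 94.8% of F3+ and 73.9% of F3-low cells, and after thinning to 5000 UMIs in 82.8% and 53.2%, against 19.6% of leukocytes.

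Hbegf, a ligand of the EGF receptor, was the only measured gene of the EGF family list. It had 287 CPM in F3+ and 120.3 CPM in F3-low cells, a log2 ratio of 1.25 (1.13 to 1.36), and was found in 142 of 210 and 344 of 670 cells. Ereg and Epgn, other ligands, and Erbb4, a receptor, had no UMI in F3+ cells. Fosl1, the AP-1 subunit Fra-1, had 53.3 CPM in F3+ and 17.8 CPM in F3-low cells, a log2 ratio of 1.53 (1.25 to 1.81), and was the highest of 26 immediate early and AP-1 genes, of which 8 were past 1.5-fold higher and none lower. The median of that list was 0.39, and without Nr4a3, which reached 10 CPM in F3+ cells only, it was 0.43 with 8 of 25 higher. Egr1, an early growth response factor, had 1199 and 1308 CPM, and Fos, the best known AP-1 subunit, had 1116 and 1605 CPM, a log2 ratio of -0.52 (-0.57 to -0.47). F3+ cells thus had more Fosl1 and less Fos than F3-low cells.

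Several NF-kB genes were higher. Of 17 measured NF-kB genes, 10 were past 1.5-fold higher and none lower, with a median of 0.64. Tnfaip3, Nfkb2 and Zc3h12a reached 10 CPM in F3+ cells only, and of the other 14 genes 8 were past 1.5-fold higher, with a median of 0.63. Cxcl1, a chemokine for neutrophils, had 317 and 176 CPM, and Nfkbia, the inhibitor of NF-kB, 508 and 328 CPM. Zc3h12a, an RNase that limits cytokine mRNA, had 22.2 and 7.76 CPM and the highest ratio of the measured genes, 1.41 (0.99 to 1.83), and Sod2, a mitochondrial superoxide dismutase, the lowest, -0.21 (-0.37 to -0.06). In the IL-6 family list, 2 of the 8 genes at 10 CPM or more in both groups were past 1.5-fold higher, Il11, a marker proposed from these data, among them. The cytokine Lif, which reached 10 CPM in F3+ cells only, had 18.8 and 7.005 CPM, whereas its receptor gene Lifr had 36.4 and 53.8 CPM. In the TNF family list 3 of 8 genes at 10 CPM or more in both groups were higher, Tnf itself being at that level in F3+ cells only, and its most abundant gene, Tnfrsf12a, the TWEAK receptor, had 362 and 178 CPM and was found in 96.2% of F3+ and 74.6% of F3-low cells.

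Some stress response genes were higher. Cdkn1a, the cell cycle inhibitor p21, had 404 and 161 CPM, a log2 ratio of 1.33 (1.23 to 1.42), and 76.2% of F3+ cells were above its F3-low median. Of 8 measured p53 target genes 3 were past 1.5-fold higher and none lower, with a median of 0.42, or 3 of 7 and 0.49 without Phlda3, which reached 10 CPM in F3+ cells only. Mdm2, which degrades p53, had 90.01 and 63.9 CPM and the apoptosis gene Bax 71.3 and 85.1 CPM. Hmox1, haem oxygenase, had 101 and 35.1 CPM and led the 13 NRF2 and metal response genes, of which 3 were past 1.5-fold higher and none lower, with a median of 0.15. Nqo1, a quinone reductase and NRF2 target, had 16.3 and 24.5 CPM. Rcan1, an inhibitor of calcineurin, had 707 and 337 CPM, with 80.5% of F3+ cells above the F3-low median.

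Among the genes that break down matrix and their inhibitors, 4 of 12 were past 1.5-fold higher and 1 lower. Timp1, an inhibitor of metalloproteinases, had 792 and 355 CPM, a log2 ratio of 1.15 (1.09 to 1.22), with a median per cell of 4.99 and 1.56 UMIs per 10000. Mmp13, a collagenase, had a ratio of 1.96 (1.73 to 2.19), but 2 cells held 67.4% of its UMIs in the F3+ group. Without the 2 highest cells of each group it was 1.26, and without the barcodes that Scrublet marked as doublets it was 0.50, under 1.5-fold. Spp1, osteopontin, had 663 and 169 CPM, and 2 cells held 65.7% of its UMIs in the F3+ group. Without the 2 highest cells of each group its ratio was 1.06, against 1.96 with them, and with F3+ cells chosen after thinning to 5000 UMIs it was -0.16.

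Cartilage matrix genes were mostly within 1.5-fold, with a large difference in Mgp. Matrix Gla protein, its product, keeps cartilage and vessels from calcifying. Mgp had 10089 CPM in F3+ and 4792 CPM in F3-low cells, a log2 ratio of 1.07 (1.06 to 1.09). Per cell it ranged from 0.760 to 755 UMIs per 10000 with a median of 57.0 in F3+ cells, and from 0 to 932 with a median of 21.5 in F3-low cells. Of 21 measured matrix genes other than collagens 2 were past 1.5-fold higher, Mgp included, with none lower and a median of 0.03. The other was Cilp2, which reached 10 CPM in F3+ cells only. C1qtnf3, a secreted protein of cartilage, had the lowest ratio of that list at 1292 and 1648 CPM. Of the 21 genes 11 had a ratio above 0. Genes within 1.5-fold also differed by more than counting error. Without the barcodes rich in blood cell RNA, described further on, Comp had a ratio of 0.52 (0.49 to 0.55). Bgn then had 0.48 (0.43 to 0.52) and Acan -0.20 (-0.22 to -0.17). Ucma, for which the gate set the same minimum in both groups, had 3361 and 2801 CPM. None of the 7 collagens was past 1.5-fold in either direction.

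None of 14 measured chondrocyte transcription factors was past 1.5-fold either. The highest was Nfatc1 with a ratio of 0.46 (0.33 to 0.59) and the lowest Runx3 with -0.43 (-0.61 to -0.26). Of 12 resting zone genes, 4 were past 1.5-fold higher and 1 lower. Penk, the enkephalin precursor, led them at 164 and 77.2 CPM, and Gas1, a hedgehog co-receptor, was lowest at 15.3 and 28.4 CPM. Of 3 articular surface genes at 10 CPM or more in both groups 2 were past 1.5-fold higher, with the chaperone gene Clu at 52.0 and 22.8 CPM. Gdf5, a growth factor of joints, reached 10 CPM in F3+ cells only, at 13.9 and 4.17 CPM. In the hypertrophic list 2 of 10 were past 1.5-fold higher, Spp1 and Mmp13, which rest on few cells as above. Cd200, within 1.5-fold, reached 10 CPM in F3+ cells only.

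Of 8 measured genes of the keratinocyte and epithelial list, 6 were past 1.5-fold higher and none lower, with a median of 0.99, a count that the choice of genes fixed in part. Krt17, Jup and Perp reached 10 CPM in F3+ cells only, and Plet1 and Krt16 were proposed as markers from these data. The others were Epcam, Sfn and Krt10. Sfn, the 14-3-3 sigma gene, named after its values were seen, had 71.0 and 34.4 CPM. Epcam, an adhesion molecule of epithelia, had 49.0 CPM in F3+ and 14.9 CPM in F3-low cells, a log2 ratio of 1.65 (1.35 to 1.95), and was found in 36.2% of F3+ and 12.8% of F3-low cells. Krt10, a keratin of upper epidermis, had 21.7 and 21.5 CPM. Listed genes below 10 CPM in both groups are not in the count. Without the barcodes rich in blood cell RNA, described further on, Krt8 among them had 4.20 and 8.93 CPM. Krt18 then had 2.70 and 0.88 CPM. The list summed to 604 and 304 CPM, and Krt16 was its most abundant gene. Krt5, Krt14 and Cdh1, which define keratinocytes and epithelia, and Krt6b, Cldn1 and Cldn4 had no UMI in any F3+ cell. At a mitochondrial limit of 5% the median of the list was 0.61.

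**Figure D3:**
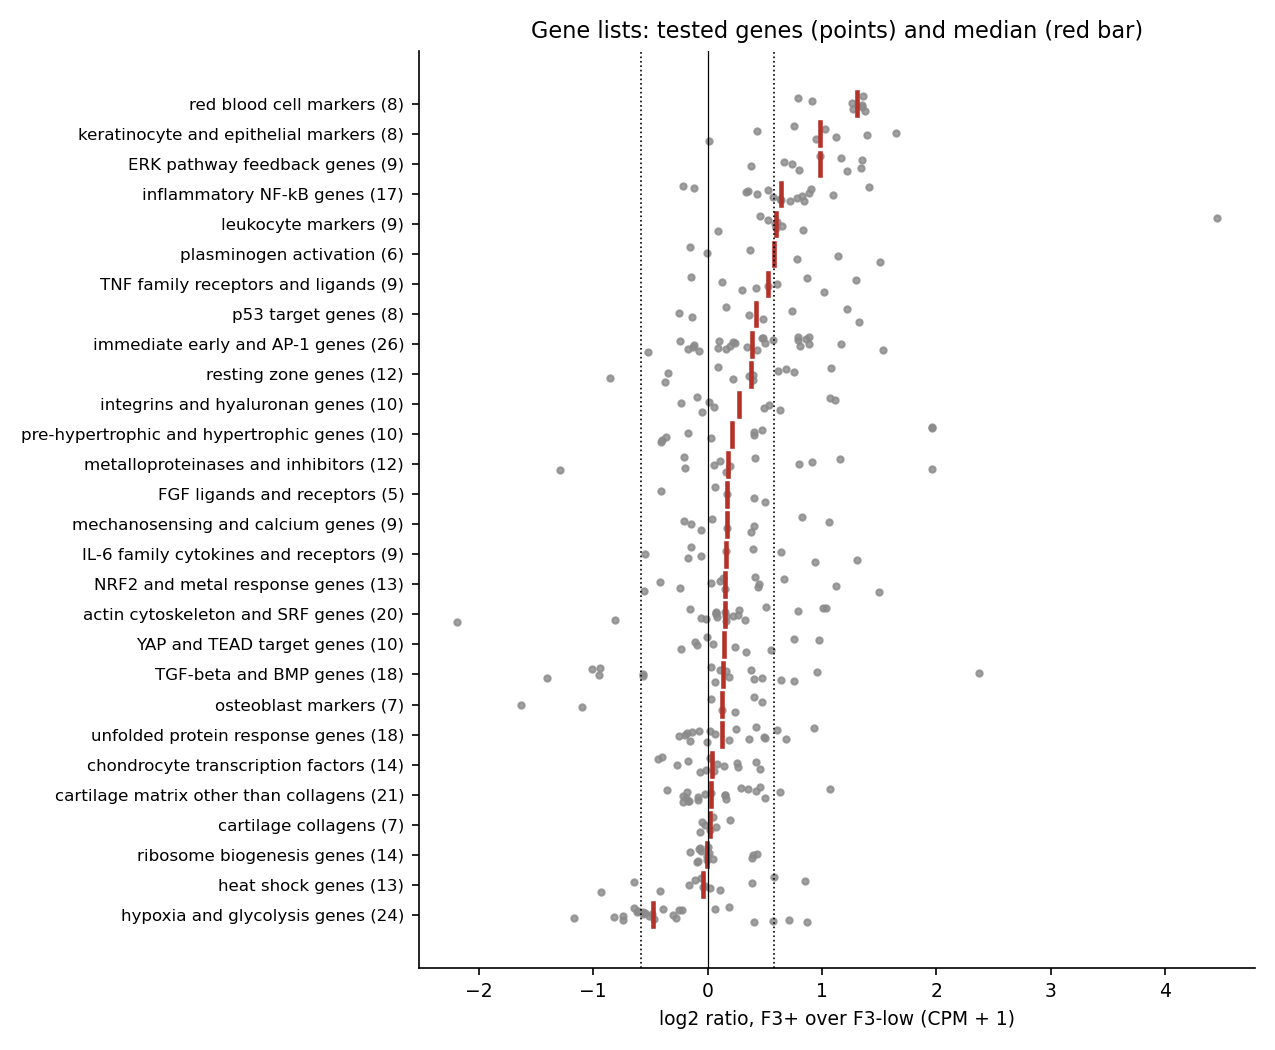
Log2 ratio of F3+ over F3-low cells for each measured gene of the lists with at least 5 measured genes (grey points), with the median of each list as a red bar and dotted lines at 1.5-fold, genes that reached 10 CPM in 1 group only included. The ERK feedback and epithelial lists have medians of 0.98 and 0.99, the cartilage collagens 0.02, and the hypoxia and glycolysis list -0.48.

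The hypoxia and glycolysis list had the lowest median of the lists with at least 5 measured genes. Low oxygen is known to stabilise the factor HIF-1, which raises glycolytic enzymes and genes that limit respiration. Of 24 measured genes of the list, 7 were past 1.5-fold lower and 2 higher, with a median log2 ratio of -0.48. Without Car9, which reached 10 CPM in F3-low cells only, 6 of 23 were lower, with a median of -0.47. Egln1, a prolyl hydroxylase that marks HIF for destruction, had 58.4 and 132 CPM, a log2 ratio of -1.17 (-1.37 to -0.96). Pgk1, a glycolytic kinase, had 749.6 and 1254 CPM, and the glycolytic enzyme gene Gapdh 1548 and 2258 CPM, the latter within 1.5-fold. Mif, a cytokine gene that hypoxia raises, had 1049.9 and 1641 CPM. Vegfa, the angiogenic factor and a known HIF target, went the other way at 235 and 128 CPM, a ratio of 0.87 (0.75 to 0.99). The other gene past 1.5-fold higher was Pfkfb3, and 6 of the 24 genes had a ratio above 0. Without the barcodes rich in blood cell RNA, described further on, Pfkfb3 had 0.64 (0.30 to 0.97). Hk2 then had 0.57 (0.38 to 0.75) and Slc2a1 0.46 (0.27 to 0.64).

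Cox4i2, Ndufa4l2, Aldoc and Fam162a were among the 15 lowest genes and belong to none of the lists. Cox4i2, the subunit of cytochrome oxidase used at low oxygen, had 123 CPM in F3+ and 289.9 CPM in F3-low cells, a log2 ratio of -1.23 (-1.38 to -1.09) and -1.28 to -1.14 in the depth strata. Ndufa4l2, which lowers complex I activity in hypoxia, had 446 and 926 CPM, with medians per cell of 1.89 and 8.22 UMIs per 10000. Aldoc, an aldolase, had 53.3 and 106 CPM and Fam162a, a mitochondrial protein induced by HIF, 403 and 689 CPM. Summed over the hypoxia and glycolysis list, F3+ cells ranged from 16.8 to 216 UMIs per 10000 with a median of 71.1, and F3-low cells from 12.6 to 284 with a median of 121. Of F3+ cells, 22.9% were above the F3-low median, and the ranges overlapped.

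The core letters of the HIF site, ACGTG on either strand, lie in the promoter windows of 20 of the 26 hypoxia and glycolysis genes matched, against 21.8% of all genes. The list was written from genes of hypoxia and glycolysis, known HIF targets among them, so this share follows in part from that choice. Its holders include Vegfa and Pfkfb3, which were higher in F3+ cells, and a match describes letters only. Of the 15 lowest genes 9 were matched, and 5 held them, Aldoc, Egln1, Fam162a, Pgk1 and Slpi. Other groups held them too, with 3 of 9 matched genes of the 15 highest, 4 of 11 of the ERK feedback list and 9 of 21 of the immediate early list. The Pgk1 window (chrX:106186850-106187149, plus strand, GRCm38.p6) is printed as an example, with its 2 matches in capitals.
Pgk1: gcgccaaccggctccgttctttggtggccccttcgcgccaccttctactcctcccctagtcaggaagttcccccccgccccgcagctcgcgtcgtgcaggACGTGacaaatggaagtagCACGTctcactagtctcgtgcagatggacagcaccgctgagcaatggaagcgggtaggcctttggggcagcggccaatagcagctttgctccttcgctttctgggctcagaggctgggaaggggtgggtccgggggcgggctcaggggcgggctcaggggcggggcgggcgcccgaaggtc

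**Figure D4:**
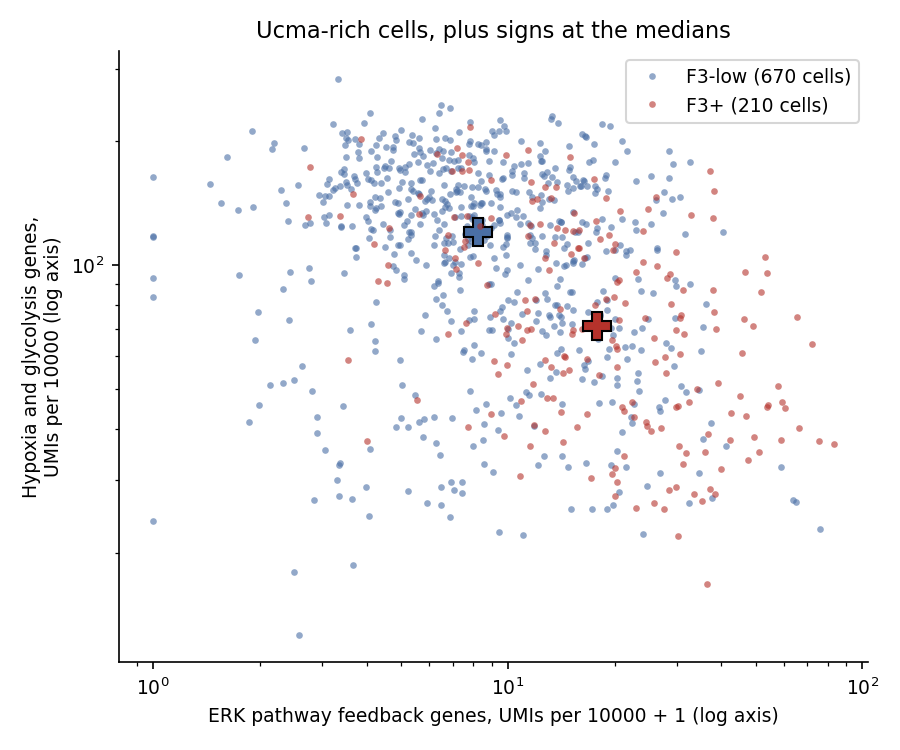
Each point is 1 of the 880 Ucma-rich cells, with the summed ERK feedback genes on the horizontal and the summed hypoxia and glycolysis genes on the vertical axis, both log axes in UMIs per 10000 of the cell, with 1 added on the horizontal. The medians (plus signs), before that addition, are 16.9 and 71.1 for F3+ and 7.27 and 121 for F3-low cells, and the groups overlap.

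The TGF-beta and BMP list held 4 of the lower genes. Id2, an inhibitor of differentiation and BMP target, had 137 and 266 CPM, a log2 ratio of -0.95 (-1.09 to -0.82). Gdf10, also called BMP3b, had 116 and 222 CPM, and Nog, the BMP antagonist noggin, 30.5 and 62.5 CPM. Smad6, an inhibitory SMAD that BMP switches on, had 8.04 and 22.8 CPM and so reached 10 CPM in F3-low cells only. In the whole list of 18 measured TGF-beta and BMP genes, 4 were past 1.5-fold higher and 4 lower, with a median of 0.13. On the higher side were Inhba and Tgfbi, a matrix protein raised by TGF-beta, at 918 and 589 CPM.

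Il17b, a cytokine of the IL-17 family, had 103 and 239.9 CPM and was found in 37.6% of F3+ and 61.0% of F3-low cells. Txnip, which binds thioredoxin and limits glucose uptake, had 74.2 and 144 CPM. Acta2, smooth muscle actin, had the lowest ratio of the named 15, -2.19 (-2.54 to -1.86), at 18.5 and 88.1 CPM. It was found in 24 of 210 and 156 of 670 cells. With the F3 minimum lowered to 1 UMI its ratio was -0.55, within 1.5-fold. Rgs5, the other mural cell marker measured, reached 10 CPM in F3-low cells only and had 1.34 and 22.3 CPM, and 2 cells held 89.2% of its UMIs in the F3-low group.

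The remaining genes among the 15 highest and 15 lowest belong to no list described above. Higher were AC127341.3 with a ratio of 1.63, Fam83g with 1.54, Arsi, an arylsulfatase, with 1.42, Cxadr, a junction protein that serves as coxsackievirus receptor, with 1.39, Fhl2, a LIM domain cofactor, with 1.36, and Medag with 1.33. Lower were Hist1h2ac, a histone gene, with -1.42, Slpi, an inhibitor of leukocyte proteases, with -0.80, and A2m, a plasma protease inhibitor, with -0.78. All had the same direction in the 3 depth strata by the rule that named them.

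The levels of several genes followed the F3 count in steps and did not part at the threshold of 2 UMIs. With 0, 1, 2, 3 to 4 and at least 5 F3 UMIs (515, 155, 61, 51 and 98 cells, with median depths between 16656 and 17673 UMIs), Errfi1 had 237, 455, 529, 666 and 885 CPM. Cdkn1a had 148, 205, 286, 366 and 495 CPM. Cox4i2 had 315, 206, 192, 126 and 79.4 CPM. For Errfi1 and Cox4i2, cells with 1 F3 UMI, just outside the rule, were nearer to cells with 2, just inside, than to cells with none.

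Il11 and Krt16 did not follow F3 in steps. Il11 had 61.8, 153, 154, 116 and 184 CPM, and so was high already with 1 F3 UMI. Krt16 had 136, 193, 172, 119.7 and 446 CPM, with its highest level in cells with at least 5 F3 UMIs. Plet1 had 47.0, 47.7, 68.6, 117 and 164 CPM, about equal with 1 F3 UMI and with none. Sox9 had 1241, 1262, 1211, 1085 and 1319 CPM.

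**Figure D5:**
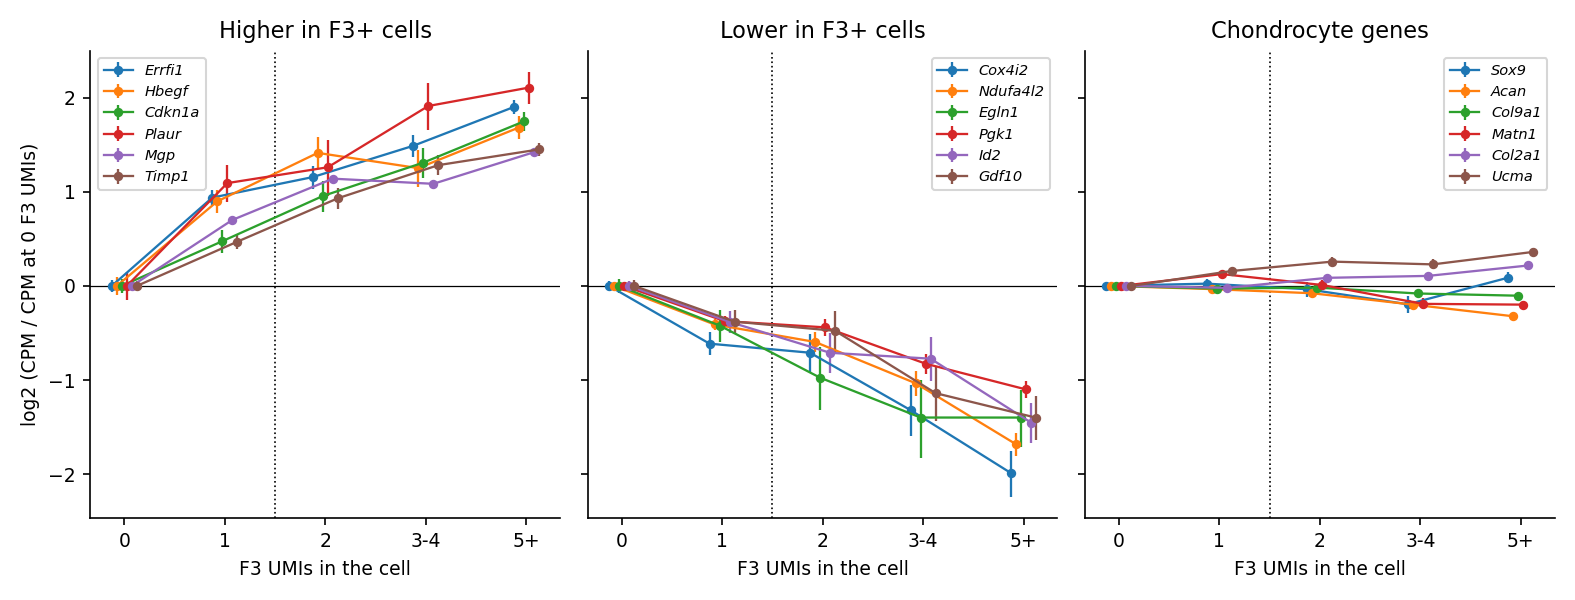
Level of 18 genes in gated cells with 0, 1, 2, 3 to 4 and 5 or more F3 UMIs, as log2 of the CPM relative to cells with 0 F3 UMIs, with the rule's threshold as a dotted line. Errfi1 goes from 237 to 885 CPM and Cox4i2 from 315 to 79.4 CPM.

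The same split by F3 was made in 3 cartilage gates whose cells the rule did not use. It gave 53 F3+ and 375 F3-low cells in the Ucma-poor columnar gate, 46 and 350 in the Pth1r gate, and 44 and 239 among cycling chondrocytes. These cells come from the same library, and the F3+ cells were deeper, with medians of 24857 against 22503, 32098 against 29829.5 and 32508 against 30645 UMIs. Of the measured genes, 5.36%, 8.03% and 6.50% were past 1.5-fold higher in the 3 gates in this order, and 7.15%, 4.82% and 6.11% lower.

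Markers of other cell types also moved with F3 in these gates, and their part in the ratios was not tested. Over genes at 10 CPM or more in both groups, 4 of 4 endothelial markers were past 1.5-fold higher in F3+ cycling cells (median 1.303), and 5 of 5 osteoblast markers lower (median -1.54). In the Pth1r gate 4 of 6 osteoblast markers were lower (median -1.29). The Ucma-poor columnar gate went the other way, with 3 of 8 osteoblast markers higher and 1 lower (median 0.29).

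Of the 15 genes highest in the Ucma-rich F3+ cells, 14, 13 and 11 were higher in F3+ cells of the 3 gates, and 12, 11 and 8 were past 1.5-fold. Of the 15 lowest, 15, 14 and 15 were lower, and 5, 9 and 8 past 1.5-fold. Over all measured genes, 50.2%, 60.1% and 56.2% had a ratio above 0. Errfi1 had log2 ratios of 1.22, 0.91 and 1.02 and Cox4i2 of -1.05, -1.12 and -0.90. Il11 had 2.87, 1.55 and 1.22, and Krt16 1.56, 2.16 and 1.64.

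Some genes had ratios near 0 or below in the other gates. Hmox1, with 1.498 (1.296 to 1.70) in the Ucma-rich gate, had 0.07 (-0.39 to 0.50), -0.16 (-0.63 to 0.29) and -0.25 (-0.69 to 0.17). Plet1 had 2.57, 1.39 and, among cycling cells, 0.50 (0.01 to 0.98). Inhba had 2.59 (1.90 to 3.30) in the Ucma-poor gate, -0.40 (-1.48 to 0.70) in the Pth1r gate and -0.20 (-1.07 to 0.62) in the cycling gate. Whether a ratio differs between gates was not tested. Over the genes at 10 CPM or more in both the F3+ and the F3-low cells of a gate, the medians of the ERK feedback list were 0.55, 0.62 and 0.72 (7, 7 and 7 genes), and those of the hypoxia and glycolysis list -0.15, -0.23 and -0.25 (24, 23 and 23 genes). The epithelial list had 1.40, 2.16 and 0.26 over 4, 3 and 4 genes, Plet1 and Krt16 included where measured, and the p53 targets 0.21, 0.59 and 0.15 over 6, 7 and 7 genes.

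Blood cell RNA was present in some barcodes and moved with the groups. Of 7 red blood cell markers at 10 CPM or more in both groups 7 were past 1.5-fold higher in F3+ cells, with a summed level of 12813 CPM against 5024 CPM, and Hbb-bs, a beta globin, was the most abundant at 6931 and 2671 CPM, although as the mean of the 3 depth strata its ratio was -0.14. The typical cell was alike, with a median haemoglobin share of 0.0416% and 0.0390%, and 9 F3+ and 13 F3-low cells were above 1%. Of 9 measured leukocyte markers 6 were past 1.5-fold higher, or 3 of 6 without Cd52, Laptm5 and Cd74, which reached 10 CPM in F3+ cells only, with sums of 1048 and 669 CPM over the 10 listed, S100a9 as the most abundant and none at 0. Cd74, the MHC class II chaperone, had the highest ratio, and 2 cells held 93.6% of its UMIs in the F3+ group.

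The comparison was repeated without the 17 F3+ and 28 F3-low barcodes that had over 1% haemoglobin or over 20 leukocyte marker UMIs per 10000. The red blood cell sums were then 435 and 429 CPM and the leukocyte sums 157 and 142 CPM. The genes past 1.5-fold were 493 higher and 202 lower, of which 429 and 169 were shared with the full comparison. Over the genes at 10 CPM or more in both groups of the full comparison, the ERK list then had 6 of 7 higher with a median of 1.20, and the hypoxia and glycolysis list 5 of 23 lower with a median of -0.47. Plet1 had 1.28, Il11 1.05 and Krt16 0.97.

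Markers of other tissues are given by their sums. In the osteoblast list 2 of 7 measured genes were past 1.5-fold lower, Bglap and Bglap2, which reached 10 CPM in F3-low cells only, and none higher, and it summed to 1672 and 1501 CPM, with Col1a2, a type I collagen chain, the most abundant. The fibroblast and tendon list summed to 266 and 250.3 CPM. The endothelial list summed to 31.9 and 34.1 CPM. The mural list summed to 24.9 and 114 CPM, with Myh11 and Kcnj8 at 0 in F3+ cells.

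The reporter was rare in the F3+ cells. WPRE, the viral element of the reporter transcript, was counted in a separate deposited matrix. More than 14 WPRE UMIs were found in 0 of 210 F3+ cells, for which 3 counts give a limit of 1.43% and the exact interval an upper bound of 1.74%, in 2 of 670 F3-low cells (0.299%) and in 76 of 129 cells of the Col10a1 gate (58.9%). The share was 0.935% in the Ucma-poor gate, 1.52% in the Pth1r gate, 2.12% in cycling chondrocytes and 0.879% in leukocytes. In osteoblast lineage cells it was 16.5%. The tdTomato sequence itself was counted in 3 F3+ cells, 3 F3-low cells and 49 cells of the Col10a1 gate. The Iroquois genes, whose alleles this mouse carries, were below 10 CPM, with Irx3 at 9.91 CPM (6.98 to 13.7) in F3+ and 5.34 CPM (4.11 to 6.82) in F3-low cells and Irx5 at 3.48 CPM (1.85 to 5.96) and 4.17 CPM (3.09 to 5.50).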

How the data were processed

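UMI counts per gene and barcode were deposited as raw counts, which the authors made with Cell Ranger 3.1.0 on mm10 with tdTomato and WPRE sequences added. Per the labels, Seurat version 3 was also used. A second deposited matrix of counts held 98 exogenous sequences. The 4 sequencing entries form 1 library of 1 mouse. Cells were gated on the deposited counts as given in the report, and the counts were summed by group to CPM over all genes. Poisson, conditional Poisson (ratios, 1 CPM added) and Clopper-Pearson 95% intervals cover counting error only, and no test was run. A gene was measured from 10 CPM upwards in F3+ or F3-low cells, and calls are past 1.5-fold, without the 8 gate genes. The named genes were the 4 markers, the 8 gate genes, the 15 highest and 15 lowest ratios with at least 50 CPM and the same direction in all 3 depth strata, and the 2 most abundant, the highest and the lowest of each list. The members and lists were chosen with earlier results of these data known. Scrublet (scanpy 1.11.5) marked 588 barcodes (4.15%), 12 of them F3+ and 28 F3-low. They were kept, and leaving them out was an alternative. The calculations were made with numpy 2.4.6 and scipy 1.17.1 and tested on simulated data. Gene positions came from GENCODE and promoters from RefSeq. A gene of the highest group is not reported here.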

Additional observations from a re-analysis of the deposited data

Results flagged for a closer look

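In 3 gates outside the Ucma-rich one, some ratios of F3+ over F3-low cells had the opposite sign to those of the Ucma-rich gate, and these differences were not tested. The log2 ratio of Cxadr was -0.91 in the cycling gate, from 7 UMIs in F3+ cells, against 1.39 in the Ucma-rich gate. The median of the leukocyte markers was -2.20 in the Ucma-poor columnar gate and -1.03 in the Pth1r gate, against 0.60 in the Ucma-rich gate. The median of the red blood cell markers was -3.23 in the Ucma-poor columnar gate and -2.39 in the cycling gate, against 1.31. Genes that reached 10 CPM in 1 group only are included, and the minimum fixed their sign. Over genes at that level in both groups, the leukocyte medians were -3.34 (3 genes), -1.47 (2 genes) and 0.56 (6 genes) in the same order. Those of the red blood cell markers were -3.32 (4 genes), -2.39 (8 genes) and 1.27 (7 genes).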

How the results depend on the processing

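No paired analysis was possible because the 4 sequencing entries were counted together in 1 matrix and there is 1 group, and leaving out a replicate was not possible for the same reason. Over the alternatives run, 84 comparison values moved by less than their counting interval or 1.5 times and 30 moved. For list medians the numbers were 531 and 60, with 1 that had been past 1.5-fold and took the opposite sign, and for named genes 2004, 470 and 8. A change of sign in a value within 1.5-fold is not counted apart. Over the genes measured in either group, the ERK feedback median ranged from 0.94 to 1.17, that of hypoxia and glycolysis from -0.56 to -0.39 and that of the epithelial list from 0.61 to 1.14. The cause of each change was not tested, unless it lies in the cells or genes left out.

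With at least 1 F3 UMI there were 365 F3+ cells, 41.5% of the gate, Plet1 had a log2 ratio of 0.97, Il11 1.32, and 111 genes were past 1.5-fold lower. With at least 3 the share was 16.9%, Plet1 1.58 and Krt16 1.14, and with F3 at 1 per 10000 UMIs or more Krt16 had 1.07. Against cells with 0 F3 UMIs the share was 29.0%, Il11 1.35 and Krt16 1.08. At most 5% mitochondrial UMIs left 116 F3+ cells, 20% of the gate, Il11 at 0.75 and 311 genes lower. With Ucma of at least 20 per 10000 the share was 27.0%, Plet1 1.21, Il11 0.68, Krt16 0.24, and 385 genes were lower. As a mean of per-cell CPM, Plet1 had 1.58. With totals that leave out ribosomal protein, mitochondrial and Col2a1 UMIs 403 of 8398 genes were lower. Past 2-fold there were 150 higher and 31 lower genes, at 50 CPM or more 165 and 34, and with no CPM minimum but at least 20 UMIs 934 and 780. At 10 CPM or more in both groups, a choice made after seeing the data, there were 340 and 110 of 6444 genes.

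Signs turned for Hspa1a, which had 0.47 with at least 1 F3 UMI and 0.048 with F3+ cells chosen after thinning, for Spp1, which had -0.16 in the latter, and for Mmp9, which had 1.18 at the 5% mitochondrial limit. As a mean of the depth strata Hba-a1 had -0.14 and Hbb-bs -0.14. Without barcodes that carried blood cell RNA, an alternative chosen after seeing the data, the red blood cell median was -0.00029, with Hbb-bs at -0.0046 and Slc4a1 at -0.47. Leaving out the 2 highest cells of each gene was also chosen after seeing the data. Genes near 10 CPM rest on few UMIs in the F3+ group, and 1 mouse gives no spread between animals.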

Other observations

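The remaining lists are given by their numbers past 1.5-fold, beside 7.03% higher and 2.82% lower over all measured genes. Each count includes genes that reached 10 CPM in 1 group only, which were Camk4 in F3+ cells and Tagln, Hsph1 and Pecam1 in F3-low cells. Of 20 actin cytoskeleton and SRF genes 3 were higher and 2 lower, with the tubulin gene Tuba1c highest at 211 and 102 CPM and Acta2 lowest, and Actb, cytoplasmic actin, at 2395 and 2147 CPM. Of 10 YAP and TEAD targets 2 were higher and none lower, and Ctgf, a matricellular growth factor, had 1208 and 821 CPM. Of 10 integrin and hyaluronan genes 3 were higher and none lower, with Cd44, the hyaluronan receptor, highest at 53.3 and 24.0 CPM and Itgb1, the beta 1 integrin, lowest at 151 and 178 CPM. Has2, which makes hyaluronan and was named after its values were seen, had 46.9 and 21.8 CPM.

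Of 9 mechanosensing and calcium genes 2 were higher and none lower, with Rcan1 the highest. Of 18 genes of the unfolded protein response 3 were higher and none lower, led by Sesn2, a stress sensor of amino acid supply, at 70.5 and 36.5 CPM, while Hspa5, the main chaperone of the endoplasmic reticulum, had 847 and 852 CPM. Of 13 heat shock genes 1 was higher and 2 lower, with the small chaperone Hspb1 at 24.1 and 12.9 CPM and the inducible Hspa1a at 21.4 and 41.9 CPM, which turned sign under other choices of cells. None of 5 FGF genes, 14 ribosome biogenesis genes and 4 nuclear and RNA quality genes was past 1.5-fold, and Malat1, a nuclear RNA, had 10047 and 10477 CPM.

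Of 2 osteoclast markers 1 was lower, Mmp9, at 10.4 and 27.0 CPM, but 2 cells held 76.5% of its UMIs in the F3-low group, and without the 2 highest cells of each group its ratio was -0.14, within 1.5-fold. None of 2 fibroblast and tendon markers and 1 skeletal muscle marker measured was past 1.5-fold, with Col3a1, type III collagen, at 165 and 169 CPM and Tnnt3, a troponin, at 55.7 and 56.6 CPM. None of 2 endothelial markers was past 1.5-fold, with Egfl7 at 12.9 and 12.6 CPM.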
